A study of Mus musculus with 44 samples.

Results

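Expression of 9 chemokine ligands was followed in dendritic cells (DCs) of the draining lymph node across the day: Ccl5, Ccl17, Ccl22, Cxcl16, Ccl3, Ccl4, Ccl6, Ccl9 and Cxcl2. The 9 genes were taken by their symbol from the deposited table of 14699 genes, with no threshold on their values. RNA-seq was performed on CD45+CD11c+ cells with high MHCII, sorted from the inguinal lymph node 24 h after an injection at zeitgeber time (ZT, hours after lights on) 3, 9, 15 or 21. There were 44 libraries, each from 1 female mouse of 8–12 weeks kept in 12 h of light and 12 h of dark. The methods of the study name C57BL/6N among its purchased mice and give no strain for the floxed and Cre lines. Libraries labelled WT (20, with 5 per timepoint) came from control mice that had received B16-F10-OVA cells, a mouse melanoma line that carries ovalbumin. Libraries labelled KO (12, with 3 per timepoint) came from mice with the same tumour cells, a homozygous floxed Bmal1 and 1 copy of a Clec9a-cre. Clec9a drives this Cre in conventional DCs and their precursors, so other cells in the sort keep the gene unless they once expressed Clec9a. Libraries labelled PBS (12, with 3 per timepoint) came from WT mice that had received the saline in place of tumour cells. Values are CPM, the reads of a gene per 1000000 reads on all genes of the table. Tests used log2(CPM + 0.5) in limma, which fits all genes together, and a gene is called where its p-value, adjusted over all genes tested, is under 0.05.

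Chemokines are small secreted proteins that guide leukocytes along gradients by way of G-protein-coupled receptors. DCs that mature and travel to the lymph node make CCL17 and CCL22, both ligands of CCR4, which T cells carry. CXCL16 is made as a transmembrane protein and attracts or holds CXCR6+ T cells. CCL3, CCL4 and CCL5 are inflammatory chemokines that NK cells, T cells and macrophages make too. CXCL2 attracts neutrophils through CXCR2, and CCL6 and CCL9 are myeloid chemokines of the mouse that act on CCR1.

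Libraries held 20088012–28962671 reads on genes in the WT group, 29406729–55799162 in the KO group and 28003328–49590054 in the PBS group. Every KO library was deeper than every WT library, so depth and genotype cannot be told apart. All PBS libraries but ZT9 replicate 1 (28003328 reads) were also deeper than every WT library. Depth and treatment can thus hardly be told apart either. Arntl, the gene that encodes BMAL1, ranged over 8.67–24.4 CPM in WT, 11.5–38.0 in KO and 12.3–34.8 in PBS libraries, and was higher in KO than in WT by 0.38 on the log2 scale (adjusted p = 0.0153). It was thus not lower in the libraries labelled KO, which are named here by that label alone. The level of the whole gene does not show whether its floxed part was cut, which was not tested here. Of the genes that define the sorted cells (Ptprc, Itgax, Flt3, Zbtb46, Cd74, H2-Aa, H2-Ab1 and H2-Eb1) all 8 were present, with summed levels of 14519–28121 CPM over the 3 groups. Markers of other cells were also present and moved with the groups, as given beside the results. All 9 chemokines passed the filter on low values in the test (at least 1 CPM in at least 5 libraries). The least read of them, Ccl3, had at least 14 reads in a library.

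Per kilobase of annotated exon, Ccl5 was the most abundant of the 9 ligands in each group, with a median of 7285 CPM per kb in WT, 7249 in KO and 8793 in PBS libraries. Ccl22 came next (median 2039.9 CPM per kb in WT), followed by Cxcl16 (751) and Ccl17 (384). In WT libraries the range of Ccl5 (5271–9198 CPM per kb) lay above that of Ccl22 (1707–3484), which lay above those of Cxcl16 (616–843) and Ccl17 (205–998). The last pair overlapped. Far below these stood Ccl9 (median 25.2 CPM per kb in WT), Ccl6 (22.6), Ccl4 (9.18), Cxcl2 (8.79) and Ccl3 (2.82), whose ranges overlapped from each to the next. Together the 9 genes held 96.4–98.6% of the length-scaled level of the 37 chemokine ligands of the table in WT libraries. Their share was 94.7–97.8% in KO and 95.6–97.3% in PBS libraries. Ccl5 alone had a median share of 68.5, 70.0 and 70.5% in WT, KO and PBS libraries. The 9 were chosen with earlier results of these data known, so their joint share is no independent result. Ccl21a, Ccl21b, Ccl21c and Ccl26 had no values and are not in this total. Exon lengths are those of GENCODE M21, where the exons of Cxcl2 fill its whole locus as 1 block of 2068 bases, so its level per kb is a low estimate if intron sequence was not in the libraries.

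**Figure D1:**
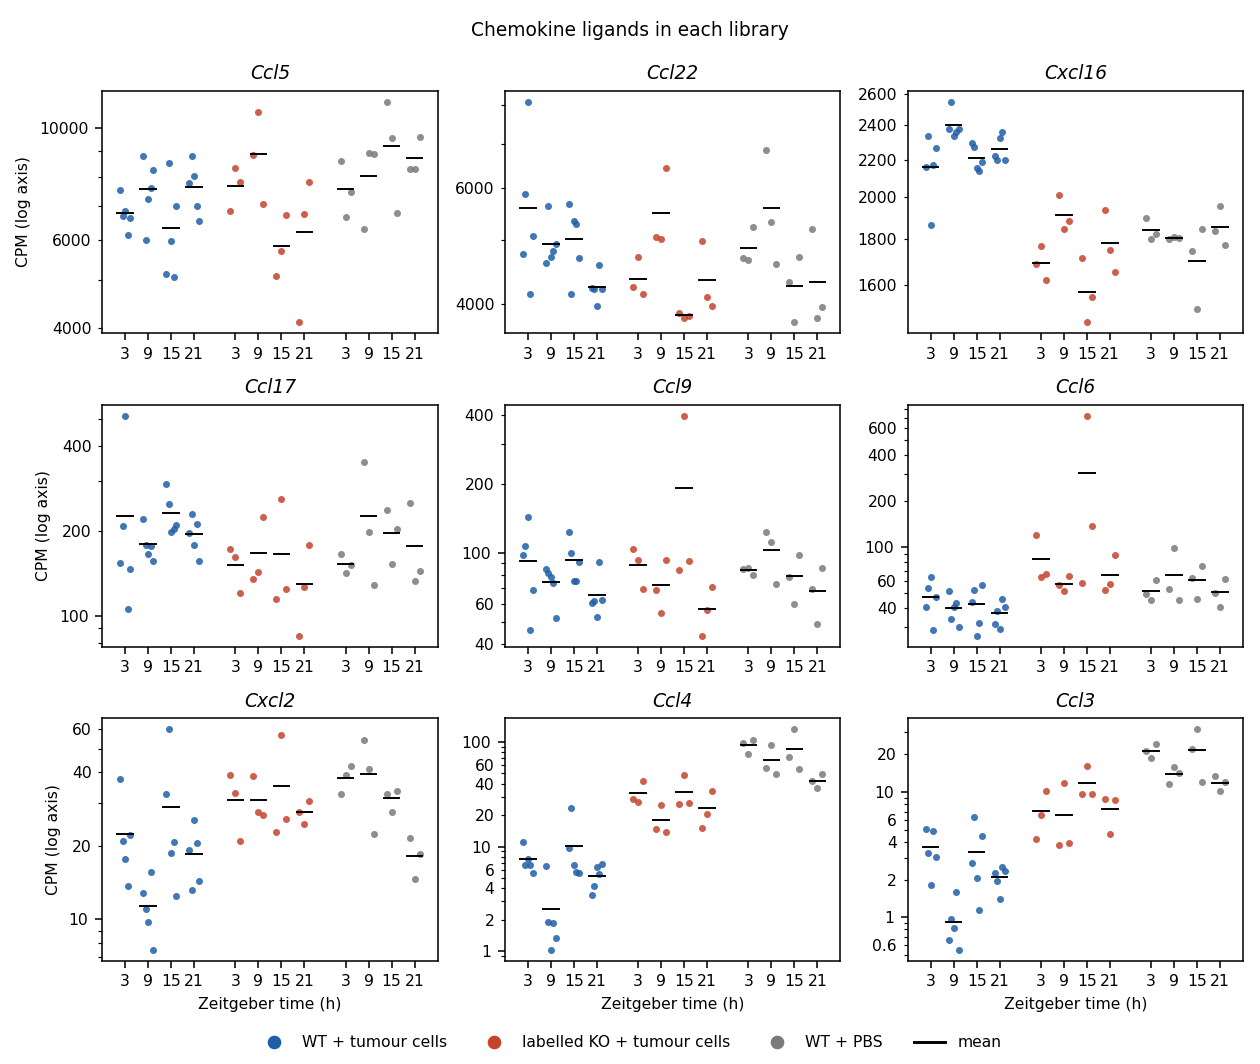
Level of each ligand in CPM (log axis) in every library, by zeitgeber time within the WT (blue), KO (red) and PBS (grey) groups; points are mice and black lines are means. Ccl3 and Ccl4 sat lowest in WT and highest in PBS libraries, with no overlap of these groups, while Cxcl16 sat highest in WT libraries.

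In KO against WT libraries averaged over time, 5 of the 9 ligands were called: Ccl4, Ccl3, Ccl6 and Cxcl2 were higher and Cxcl16 was lower in KO. This comparison called 33.7% of all 11963 genes tested, 23.5% as higher and 10.2% as lower. The median difference of the 9 was 0.11 on the log2 scale and that of all genes tested 0.10. Of the calls over all genes 69.8% were higher in KO, a share that dropped to 49.9% when libraries were scaled by median of ratios. No ligand changed direction with that scaling.

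Ccl4 and Ccl3 encode MIP-1β and MIP-1α and lie near each other on chromosome 11 of GRCm38, Ccl3 at chr11:83647844-83649355 on the minus strand and Ccl4 at chr11:83662584-83664683 on the plus strand. Ccl4 ranged over 1.04–23.5 CPM in WT (median 6.06) and 13.8–47.9 in KO libraries (median 25.9). At each of the 4 timepoints all KO libraries lay above all WT libraries, although over the whole day the ranges overlapped. The difference was 2.16 ± 0.21 on the log2 scale (SE), a 4.46-fold higher level in KO (adjusted p = 1.37e-08). Ccl3 ranged over 0.551–6.32 CPM in WT (median 2.16) and 3.81–16.1 in KO libraries (median 8.70), without overlap at 3 of the 4 timepoints, the exception being ZT3. It was 3.03-fold higher in KO (log2 difference 1.60 ± 0.20, adjusted p = 5.91e-07). Since log2(CPM + 0.5) was fitted, the fold of so low a gene is understated.

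Ccl6 ranged over 26.1–63.8 CPM in WT (median 40.6) and 51.5–728 in KO libraries (median 63.8). It is a myeloid ligand of CCR1, and 6 of the 12 KO libraries lay above all 20 WT libraries. Its log2 difference was 1.08 ± 0.23 (adjusted p = 6.21e-04). The highest value came from KO ZT15 replicate 2, and without this library the KO range was 51.5–137 CPM and the difference 0.82 (adjusted p = 1.88e-04). The same library held the highest Ccl9 (398 CPM, against 43.4–104 in the other KO libraries), and it also had the highest sums of the monocyte and macrophage list (3654 CPM, others 1087–2308), of the cDC2 list (718, others 156–357) and of the melanoma list (22.1, others 1.45–4.60). Its sum of mature migratory DC genes was the lowest of the group (33525, others 36392–46537). The part of these cells in the levels of Ccl6 and Ccl9 was not tested.

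Cxcl2, an ELR chemokine that draws neutrophils, ranged over 7.53–60.0 CPM in WT (median 18.2) and 20.9–56.7 in KO libraries (median 27.5). No KO library lay outside the WT range of the whole day, although all 3 at ZT9 lay above the 5 of WT at ZT9. Averaged over the day the log2 difference was 0.72 ± 0.19 (adjusted p = 0.00424), with 1.42 at ZT9 and 0.49, 0.36 and 0.59 at ZT3, ZT15 and ZT21. Cxcl16, the membrane-bound ligand of CXCR6, ranged over 1862–2547 CPM in WT (median 2268) and 1456–2008 in KO libraries (median 1731). The groups did not overlap at any of the 4 timepoints (1456–1712 CPM in KO against 2136–2295 in WT at ZT15, for example), and 9 of 12 KO libraries lay below all WT libraries of the whole day. Cxcl16 was 1.30-fold lower in KO, with a log2 difference of -0.38 ± 0.04 (adjusted p = 1.24e-07). Cxcl16 varied little within a group and timepoint, with an SD of 0.08 on the log2 scale against a median of 0.33 over all genes tested, which placed it at the 0.159 percentile. Its exons (chr11:70453983-70459984, minus strand) overlap those of Zmynd15, whose median was 805 CPM in WT and 735 in KO libraries, and the library kit does not mark strand, so reads of the overlap cannot be told apart.

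Ccl5, Ccl22, Ccl17 and Ccl9 were not called between KO and WT. Ccl5, the ligand with the highest level, had medians of 6994 CPM in WT and 6959 in KO libraries, and its log2 difference was -0.01 ± 0.09 (adjusted p = 0.955). Ccl22 had medians of 4743 and 4195 CPM (log2 difference -0.13 ± 0.07, adjusted p = 0.187), with no overlap at ZT15, where the KO libraries were at 3816–3877 CPM and the WT libraries at 4141–5669, and Ccl9 of 76.8 and 77.6 CPM (0.11 ± 0.18, adjusted p = 0.680). Ccl17 stood at the threshold. Its medians were 198 CPM in WT and 139 in KO libraries, with a log2 difference of -0.42 ± 0.17 (adjusted p = 0.0563), and the adjusted p lay between 0.0173 and 0.1195 over the other settings and omissions tried. Without KO ZT15 replicate 2 it was called (log2 difference -0.51, adjusted p = 0.0191). Ccl17 and Ccl22 both lie on chromosome 8, at chr8:94810453-94812036 and chr8:94745590-94751699, both on the plus strand.

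Genes of other cells moved in the same comparison as the higher ligands. Of the 12 NK and cytotoxic genes, 8 were higher in KO than in WT and none lower, and their sum was 79.0–141 CPM in WT and 113–317 in KO libraries. Of 14 monocyte and macrophage genes, 12 were higher and 1, Vcam1, was lower (sums of 617–1351 and 1087–3654 CPM), and of 15 genes that tissue dissociation induces 12 were higher and 1 lower (5206–9843 and 8867–14079.9 CPM). T cell genes were higher in 6 of 15 tested (sums of 449.6–861 and 672–1358 CPM). Among DC subsets, cDC2 genes were higher in 6 of 8 (139–290 and 156–718 CPM), plasmacytoid DC genes in 5 of 7 (71.3–106 and 82.1–230 CPM) and Langerhans cell genes in 3 of 4 (52.9–91.2 and 70.4–139.9 CPM), with none lower, while cDC1 genes were higher in 3 of 9 and lower in 1. No gene of these lists was at 0 in every library of a group, and Gzma of NK and cytotoxic cells had a median of 1.83 CPM in WT and 11.6 in KO libraries. Granulocyte genes were higher in 2 of 6 tested and B cell genes in 1 of 7, with none lower. Of the 8 genes that define the sorted cells only Ptprc was higher, with none lower. Mature migratory DC genes were higher in 2 of 12 and lower in 2. In RNA of sorted cells, a lower share of a cell type and less RNA per cell cannot be told apart. The part of these cells, and of stress in preparation, in the levels of Ccl3, Ccl4, Ccl6 and Cxcl2 was not tested.

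**Figure D2:**
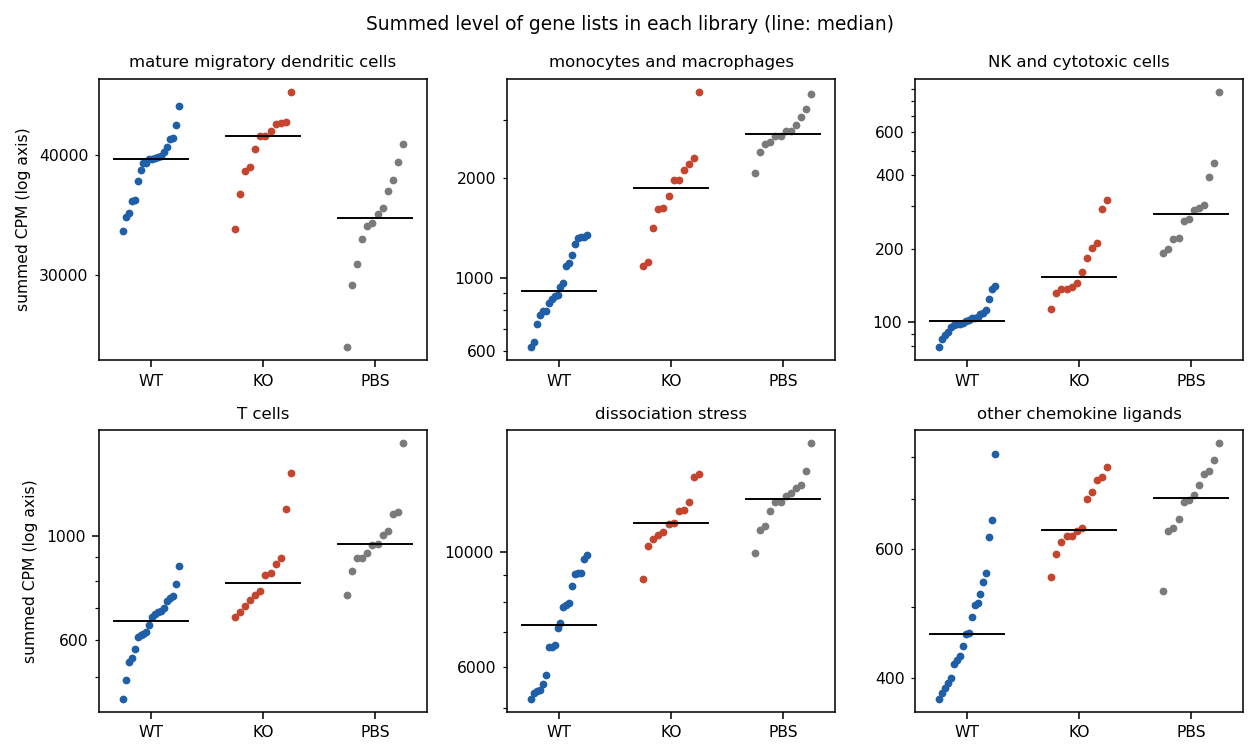
Summed CPM (log axis) of the genes of 6 lists in each library of the WT, KO and PBS groups, sorted by value within a group; black lines are medians. The NK and cytotoxic sum was 79.0–141 CPM in WT, 113–317 in KO and 192–876 in PBS libraries, and the order of the medians was the same for monocytes and macrophages, T cells, dissociation stress and the other chemokine ligands.

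In WT mice with tumour cells against PBS, 6 of the 9 ligands were called, with Ccl4, Ccl3, Cxcl2, Ccl6 and Ccl5 lower and Cxcl16 higher in the presence of tumour cells. Over all genes 37.9% were called, 13.3% as higher and 24.6% as lower, and 35.1% of the calls were higher (46.1% with median-of-ratios scaling). The median difference of the 9 ligands was -0.24 on the log2 scale, and that of all genes tested -0.04. This comparison uses the same 20 WT libraries as that of KO with WT, so opposite signs in the 2 comparisons can come from the shared WT values and are no independent evidence.

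Ccl4 ranged over 36.4–132 CPM in PBS libraries (median 64.1), all of them above the highest WT library (23.5). It was 11.9-fold lower in WT mice with tumour cells (log2 difference -3.57 ± 0.21, adjusted p = 2.89e-13). Ccl3 ranged over 10.2–31.8 CPM in PBS libraries, again all above the highest WT library (6.32), and was 6.42-fold lower with tumour cells (log2 difference -2.68 ± 0.17, adjusted p = 2.59e-12). These were the largest differences among the 9 ligands in either comparison, and they were seen at each timepoint, from -2.93 (ZT21) to -4.65 (ZT9) for Ccl4 and from -2.27 (ZT21) to -3.37 (ZT9) for Ccl3.

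Cxcl2 ranged over 14.6–54.4 CPM in PBS libraries (median 32.7) and was lower in WT with tumour cells by 0.71 ± 0.18 on the log2 scale (adjusted p = 0.00264). By timepoint the difference was -0.82 at ZT3, -1.70 at ZT9, -0.32 at ZT15 and 0.00 at ZT21. Ccl6 ranged over 40.4–99.2 CPM in PBS libraries (median 51.7), and its log2 difference was -0.46 ± 0.14 (adjusted p = 0.00872). Ccl5 had a median of 8442 CPM in PBS libraries (range 6294–11288), with 5 of 20 WT libraries below all of them (log2 difference -0.24 ± 0.09, adjusted p = 0.0276). This last call was lost with median-of-ratios scaling (adjusted p = 0.110).

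Cxcl16 ranged over 1507–1954 CPM in PBS libraries (median 1805), and 19 of 20 WT libraries lay above all of them. The exception was WT ZT3 replicate 3 (1862 CPM). Its log2 difference was 0.33 ± 0.04, or 1.25-fold higher with tumour cells (adjusted p = 3.56e-07). Ccl17 (0.13 ± 0.17, adjusted p = 0.580), Ccl22 (0.06 ± 0.08, adjusted p = 0.627) and Ccl9 (-0.05 ± 0.14, adjusted p = 0.791) were not called. The ligands of CCR4 thus had no call in either comparison, with PBS medians of 158 CPM for Ccl17 and 4687 CPM for Ccl22.

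**Figure D3:**
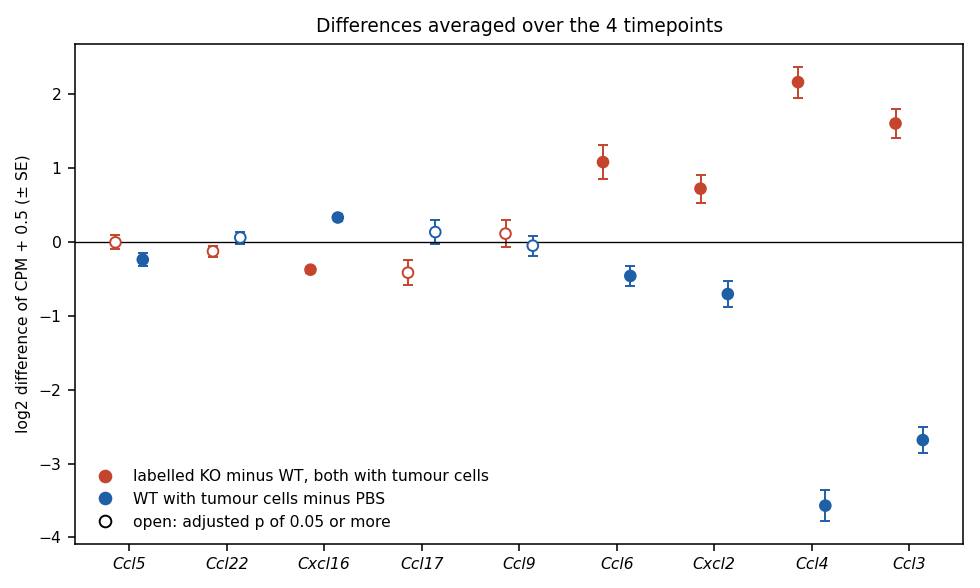
Differences of log2(CPM + 0.5), averaged over the 4 timepoints, of KO minus WT (red) and of WT with tumour cells minus PBS (blue) for each ligand; bars are SE, and open symbols have an adjusted p of 0.05 or more. Ccl4 lay at 2.16 and -3.57 and Ccl3 at 1.60 and -2.68, while both values of Ccl22 and Ccl9 lay within 0.13 of 0; the comparisons share the WT libraries.

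In this comparison as well, the markers of other cells moved with the lower ligands. Of the 12 NK and cytotoxic genes, 11 were lower with tumour cells and none higher, with sums of 192–876 CPM in PBS libraries. Monocyte and macrophage genes were lower in 12 of 14 (PBS sums of 2074–3599 CPM), T cell genes in 13 of 15 (749–1573 CPM), with Themis higher, and genes of dissociation stress in 13 of 15 (9939.8–16174 CPM), with Hspa1a and Hspa1b higher. Of the 8 genes that define the sorted cells 4 were lower with tumour cells and none higher (Ptprc, Itgax, Cd74 and H2-Ab1, by 0.34, 0.39, 0.24 and 0.49 on the log2 scale). Genes of cDC2 were lower in 6 of 8 and those of Langerhans cells in 3 of 4, with none higher. Granulocyte genes were lower in 3 of 6 tested and B cell genes in 3 of 7, with none higher. Median granulocyte sums were 4.89 CPM in WT and 41.1 in PBS libraries. Genes of mature migratory DCs were higher in 8 of 12 and lower in none, with sums of 33356–44983 CPM in WT and 25241–41091 CPM in PBS libraries, and those of cDC1 were lower in 8 of 9, with Batf3 higher, and those of plasmacytoid DCs in 7 of 7. Ncr1, an NK cell receptor, had a median of 15.6 CPM in PBS libraries against 0.824 CPM in WT. The part of these cells in the ligand levels was not tested.

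Across the day, Ccl3 and Ccl4 were called in WT mice with tumour cells when the 4 timepoints were compared (adjusted p = 0.0265 and 0.0259). This test called 5.28% of all genes. Ccl3 was 0.663, 0.975, 0.820, 1.60 and 0.551 CPM in the 5 libraries of ZT9, a mean of 0.922 ± 0.411 (SD, n = 5). Means were 3.61 ± 1.35 CPM at ZT3, 3.34 ± 2.06 at ZT15 and 2.09 ± 0.446 at ZT21 (SD, n = 5 each). ZT9 was the trough, with 4 of its 5 libraries under the lowest value of any other timepoint (1.14 CPM, in ZT15).

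Ccl4 was 6.58, 1.90, 1.04, 1.85 and 1.34 CPM at ZT9 (mean 2.54 ± 2.29, SD, n = 5), so that 4 of the 5 libraries lay below all those of ZT3 (5.59–11.1 CPM), ZT15 (5.54–23.5) and ZT21 (3.45–6.75). Its means at these times were 7.55 ± 2.12, 10.2 ± 7.62 and 5.27 ± 1.42 CPM. Cxcl2 had its lowest WT values at ZT9 too (7.53–15.7 CPM, against 13.7–37.7 at ZT3, 12.5–60.0 at ZT15 and 13.2–25.6 at ZT21), but was not called (adjusted p = 0.133). Both calls depend on single mice. Without any one of WT ZT9 replicates 1, 2, 3 or 5, or of ZT15 replicate 1, the adjusted p of Ccl3 was 0.0509–0.0663, and without any one of ZT9 replicates 2, 3, 4 or 5, or of ZT15 replicate 1, that of Ccl4 was 0.0549–0.0744.

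Several lists of other cells were also low at ZT9 in WT libraries, and others were not. Monocyte and macrophage genes summed to 617–795 CPM at ZT9, 842–1330.4 at ZT3, 1107–1351 at ZT15 and 793–937 at ZT21, and 9 of the 14 were called over time. Of the 15 dissociation stress genes 5 were called over time (5206–7121 CPM at ZT9, 7293–9104 at ZT3, 6605–9843 at ZT15 and 5388–7946 at ZT21), as were 3 of 12 NK and cytotoxic genes (79.0–105 CPM at ZT9 and 89.1–141 at ZT15). T cell genes had their lowest mean sum at ZT9 (535 CPM, against 646, 692 and 728 at ZT3, ZT15 and ZT21), with 2 of 15 called over time. Of the 8 cDC2 genes 5 were called over time, with mean sums of 210.4 CPM at ZT3, 183 at ZT9, 235 at ZT15 and 181 at ZT21. Granulocyte genes had mean sums of 15.6 ± 20.1, 3.43 ± 3.03, 15.1 ± 7.76 and 3.68 ± 1.21 CPM at these times (SD, n = 5 each). Genes that define the sorted cells also had their lowest mean sum at ZT9 (16247 CPM, against 19726.5, 22928 and 17765 at ZT3, ZT15 and ZT21). Neither of these lists had a gene called over time. The lists of cDC1, Langerhans cells and B cells had their highest mean at ZT9 (931, 74.6 and 57.2 CPM), with no gene called over time. The part of other cells and of stress in the time course of Ccl3 and Ccl4 was not tested.

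The other WT ligands were not called over time. Ccl5 had its highest mean at ZT21 (7632 ± 894 CPM, SD, n = 5) and its lowest at ZT15 (6338.5 ± 1459), with an adjusted p of 0.394. Ccl22 fell between 3969.7 and 4585 CPM at ZT21 and between 4142 and 8099.7 CPM at ZT3 (adjusted p = 0.330), and Cxcl16 had its highest mean at ZT9 (2400 ± 83.6 CPM, adjusted p = 0.456). A cosinor, a sinusoid with a period of 24 h, called none of the 9 ligands in WT, KO or PBS libraries. It called 0.0251% of all genes in WT and 0% in KO and PBS. At an unadjusted p under 0.05 the cosinor of limma found 0 of the 9 in WT, 0 in KO and 1 in PBS, Cxcl2, with an amplitude of 0.53 on the log2 scale and an adjusted p of 0.663. Of all 11963 genes, 1101, 1258 and 883 passed that unadjusted threshold.

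No ligand was called between timepoints in KO or PBS libraries, where the test called 0% of all genes. At an unadjusted p under 0.05 there were 0 of 9 in KO and 3 in PBS, namely Ccl3, Ccl4 and Cxcl2, with limma's adjusted p from 0.616 to 0.652, beside 1232 and 890 of all 11963 genes. In PBS libraries, Cxcl2 was 22.4–54.4 CPM at ZT9 and 14.6–21.5 at ZT21, and Ccl4 was 36.4–49.6 CPM at ZT21 and 77.4–105 at ZT3.

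Whether the time course differed between groups was tested directly as an interaction. None of the 9 ligands was called for genotype by time, which called 0.0502% of all genes, or for treatment by time, which called 0%. At an unadjusted p under 0.05 there was 1 for genotype (Ccl22, adjusted p = 0.271) and 2 for treatment (Ccl4, adjusted p = 0.369, and Cxcl2, adjusted p = 0.282), all from limma. For all genes these unadjusted counts were 2184 and 1423 of 11963. Ccl3 and Ccl4, called over time in WT and not in KO or PBS, were thus not shown to differ in their time course between groups (adjusted p = 0.404 and 0.637 for genotype by time, 0.579 and 0.369 for treatment by time).

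Within a group and timepoint, mice differed in some ligands together. Deviations of log2(CPM + 0.5) from the mean of each group and timepoint were correlated for 7 pairs in each of the 3 groups, and p-values came from permutation within timepoints, adjusted over the 21 values. Ccl6 and Ccl9, which lie near each other on chromosome 11 (chr11:83587882-83593087 and chr11:83572919-83578636, both minus strand), had r = 0.76 in WT (rho 0.73, permutation p = 4.40e-04, adjusted p = 0.00924, n = 20; rho adjusted p = 0.0178) and r = 0.92 in KO libraries (rho 0.81, exact permutation p = 0.00154, adjusted p = 0.0162, n = 12; rho adjusted p = 0.0405). In PBS libraries r was 0.68 (rho 0.69, exact permutation p = 0.0833, adjusted p = 0.219). Without the 2 libraries farthest from the median of Ccl6, r was 0.67 in WT, 0.77 in KO and 0.67 in PBS, and no adjusted permutation p then passed (0.0648 in WT and KO).

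Ccl17 and Ccl22 had r = 0.93 in PBS libraries (rho 0.94, exact permutation p = 0.0131, adjusted p = 0.0659; rho p = 0.00772, adjusted 0.0405) and r = 0.78 in WT (rho 0.44, permutation p = 0.0157, adjusted p = 0.0659), where the relation rested on WT ZT3 replicate 3 and 1 other library, since r was 0.25 without the 2 farthest. In KO libraries r was -0.001 (rho -0.19, exact permutation p = 0.995). Whether these values differ between the groups was not tested. Ccl3 and Ccl4, which differed alike between groups, had r = 0.32 in WT (permutation p = 0.283), 0.68 in KO (exact permutation p = 0.0340) and 0.82 in PBS (exact permutation p = 0.0309), none of which passed the adjustment.

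Cxcl2 followed the mean of the dissociation stress genes in WT libraries, with r = 0.67 (rho 0.63, permutation p = 0.00283, adjusted p = 0.0198, n = 20), and with r = 0.54 in KO and 0.39 in PBS libraries (exact permutation p = 0.162 and 0.368). Without the 2 farthest libraries r in WT was 0.65, with an adjusted permutation p of 0.0648. Ccl5 had r = 0.35, 0.27 and 0.47 with the NK and cytotoxic list in WT, KO and PBS (permutation p from 0.282 to 0.611), and Ccl22 had r = -0.31, 0.38 and 0.40 with the mature migratory DC list (permutation p from 0.246 to 0.447). Ccl9 had r = 0.85 with the monocyte and macrophage list in KO (exact permutation p = 0.0988, adjusted p = 0.230), which dropped to 0.46 without the 2 farthest libraries. Depth and the share of each cell type are common to both sides of such pairs.

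**Figure D4:**
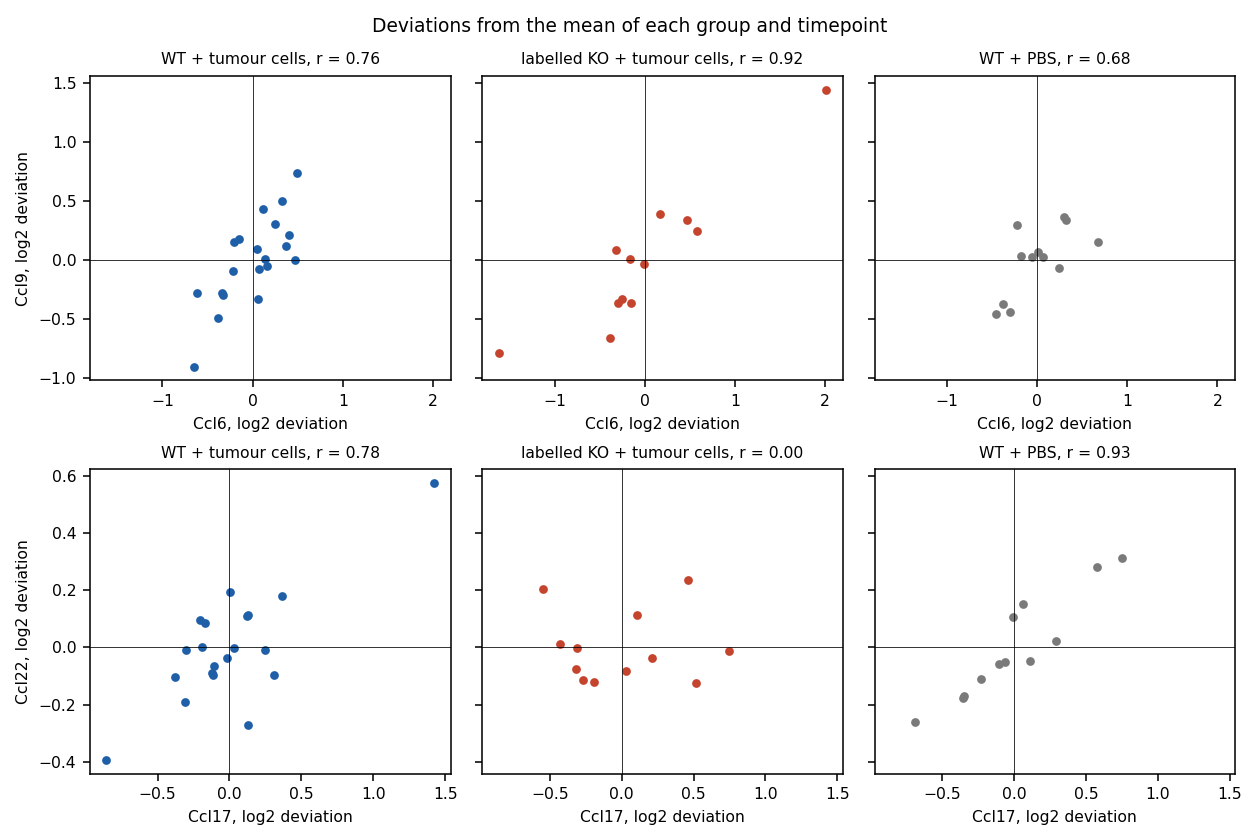
Deviations of log2(CPM + 0.5) from the mean of each group and timepoint for Ccl6 against Ccl9 (top) and Ccl17 against Ccl22 (bottom) in WT, KO and PBS libraries; each point is a mouse. The Ccl6 and Ccl9 points rose together with r of 0.76, 0.92 and 0.68, and 1 WT library stood far to the right for Ccl17.

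Over all 44 libraries, the genes whose deviations were most like those of a ligand were found among the 11963 genes tested, given here without a test, since such genes share libraries and depth. For Cxcl2 the nearest was Cxcl1 (r = 0.91), a second ligand of CXCR2, followed by Il1b (0.80) and Tnfsf9 (0.79). For Ccl6 and Ccl9 each was nearest to the other (r = 0.83), and Wfdc17 was also near to both (0.78 and 0.73). Ccl17 was nearest to Bcl2a1d (0.79), Ccl9 (0.77) and Ifitm2 (0.71), and Ccl22 to Stxbp6 (0.71), Cd82 (0.71) and Cdc42 (0.68). Ccl5 was nearest to Txn1 (0.89), Tmbim4 (0.88) and Eif2s2 (0.87), and Cxcl16 to Relt (0.70), Vopp1 (0.68) and Ncaph2 (0.67). For Ccl4 the nearest was Batf3 (0.76), with Ift20 (0.74) and Sft2d1 (0.74). Batf3 is a transcription factor of cDC1. Unlike the other cDC1 genes listed, and unlike Ccl4, it was higher with tumour cells than in PBS libraries (log2 difference 0.30). For Ccl3 the nearest were Fkbp2 (0.72), Mplkip (0.63) and Gm12216 (0.63).

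The other chemokine ligands, a list of 32 of which 28 were in the table and 18 could be tested, were described in the same way. In KO against WT, 8 were higher (Ccl1, Ccl2, Ccl7, Ccl8, Cxcl10, Cxcl13, Xcl1 and Cx3cl1) and 1 was lower, Ccl19, which binds CCR7. Xcl1, which binds XCR1 of cDC1, had medians of 3.06 CPM in WT and 20.3 in KO libraries (log2 difference 2.26, adjusted p = 3.90e-08). Cxcl10, a ligand of CXCR3, had medians of 15.5 and 31.8 CPM (log2 difference 1.13, adjusted p = 2.19e-06). With tumour cells against PBS 9 of the 18 were lower and none higher, Xcl1 by 2.80 on the log2 scale (adjusted p = 1.53e-09) from a PBS median of 22.4 CPM. The median difference of the 18 was 0.39 in KO against WT and -0.88 in WT against PBS, beside 0.10 and -0.04 for all genes. Over time in WT, Ccl7, Ccl12, Cxcl9 and Cxcl10 were called.

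A list of chemokine receptors, mostly of the 9 ligands, and of enzymes that cut chemokines held 12 tested genes. Of these, 8 were higher in KO than in WT and none lower. With tumour cells against PBS 9 were lower and 1, Dpp4, a protease that trims several chemokines, was higher. The list includes Ccr2, which is also in the monocyte and macrophage list and was called in both comparisons. Cxcr6, the receptor of CXCL16, had medians of 15.4 CPM in WT, 82.2 in KO and 161 in PBS libraries (log2 differences of 2.62 in KO against WT, adjusted p = 1.56e-11, and -3.42 in WT against PBS, adjusted p = 2.70e-14). Cxcr6 was lowest in WT libraries, where Cxcl16 was highest, and both comparisons share these libraries. From KO to PBS libraries the median of Cxcr6 rose from 82.2 to 161 CPM, and that of Cxcl16 from 1731 to 1805 CPM. A relation between them was not tested. Ccr4, the receptor of CCL17 and CCL22, had medians of 1.78, 2.34 and 4.04 CPM, and was called in WT against PBS (-1.52, adjusted p = 4.95e-05) but not in KO against WT (adjusted p = 0.274). Adam10, which sheds CXCL16 from the membrane, had medians of 108, 92.4 and 81.7 CPM and no call (adjusted p = 0.953 and 0.0792).

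Of 9 genes that NF-kB induces as its own feedback or that encode its subunits, 3 were higher and 1 lower in KO against WT. With tumour cells against PBS, 4 were higher and 2 lower. Over all genes these comparisons called 33.7 and 37.9%. The median differences of the list were -0.02 and -0.06 on the log2 scale, beside 0.10 and -0.04 for all genes. Promoter sequences from RefSeq (GRCm38.p6) were matched by symbol for 6 of the 9 ligands. The 150 bases before the annotated start are shown for the called myeloid ligands Cxcl2, Ccl3 and Ccl6, and for Ccl9, which followed Ccl6, each read in the direction of the gene. They come from chr5:90903749-90903898 (plus strand) for Cxcl2, chr11:83649379-83649528 (minus) for Ccl3, chr11:83593088-83593237 (minus) for Ccl6 and chr11:83578637-83578786 (minus) for Ccl9. Capitals mark matches of the motifs searched on both strands.
Cxcl2: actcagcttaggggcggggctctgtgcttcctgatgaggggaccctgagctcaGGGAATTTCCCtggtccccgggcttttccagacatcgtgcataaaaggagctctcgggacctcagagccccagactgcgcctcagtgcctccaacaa
Ccl3: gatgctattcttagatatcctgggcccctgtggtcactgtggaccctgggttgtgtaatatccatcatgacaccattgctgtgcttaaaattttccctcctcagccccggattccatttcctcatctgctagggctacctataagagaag
Ccl6: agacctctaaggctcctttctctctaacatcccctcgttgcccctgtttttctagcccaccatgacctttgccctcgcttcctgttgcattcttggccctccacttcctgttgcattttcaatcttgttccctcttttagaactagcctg
Ccl9: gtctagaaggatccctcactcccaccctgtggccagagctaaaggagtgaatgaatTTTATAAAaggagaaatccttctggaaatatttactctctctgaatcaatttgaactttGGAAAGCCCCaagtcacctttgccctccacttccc

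The search covered the 250 bases before and 50 bases after the start. The NF-kB consensus was found in Cxcl2, where GGGAATTTCC at -97 and a match on the opposite strand at -96 overlap, and in Ccl9 on the opposite strand at -35, and in 4.51% of the 32851 mouse promoters of the table. TATAAA was found in Ccl9 alone of the 6 ligands (13.6% of all promoters), at -92 and, on the opposite strand, at the overlapping -94 and at -224. The E-box CACGTG, to which BMAL1 binds with CLOCK, was in none of the 6 (7.15% of all promoters), and the D-box TTANGTAA was in none (2.32%). A match is a run of letters and no evidence of binding, and the absence of a match holds for this window only.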

How the data were processed

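RNA-seq of sorted lymph node cells was analysed from 44 libraries, grouped by the sample labels. The authors amplified cDNA with SMART-Seq v4, made Nextera XT libraries, sequenced single reads of 50 bases, aligned them to mm10 with STAR (2.7.0), counted them with HTSeq (0.9.1) and deposited CPM scaled by library size with edgeR. Tool versions and build are from the submitters' processing notes. The deposited CPM are linear and sum to 1000000 per library, and the stated filter on low values is not applied in the table. From 87.6 to 89.8% of the low values of a library were whole multiples of 1 read (tolerance 0.01 read), which gave the reads per library. Since whole reads could not be recovered for all genes (Cxcl16 was a fraction of a read in 43 and Cxcl2 in all 44 libraries, for a reason not given in the sources used here), no count test was run. Intervals from counting are not given. No pair of libraries was identical, and no column of the table was left out. The study describes 2 independent experiments, which the labels do not assign to libraries, so no batch term could be fitted.

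The test, by limma 3.58.1 (R 4.3.3) on log2(CPM + 0.5), took the 11963 of 14699 genes that reached 1 CPM in 5 libraries or more, and its p-values were adjusted over them by Benjamini–Hochberg. Averaged differences and interactions were fitted on the 32 libraries compared, and timepoints and 24-h cosinors in each group alone. Correlations (scipy 1.17.1, numpy 2.4.6, pandas 2.3.3; Python 3.11.15) used 1296 exact arrangements for 12 libraries and 100000 resamples for 20, two-sided. The fits were tested on simulated data first.

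The ligands, the gene lists and the tests were chosen with earlier results of these data known. Named are the 9 ligands, Arntl, genes of the lists that pass a test or define a cell type, and the 3 genes most like each ligand. Zmynd15, for its overlap with Cxcl16, and Adam10, which passed no test, were named after their values were seen. Alternatives were pseudocounts of 1 and 0.1, median-of-ratios scaling, no filter beyond a value above 0, a filter on a mean under 10 CPM, an intensity trend, weights per library (array weights), a block by replicate number, and omission of each library in turn. Coordinates and exons are of GENCODE M21 (GRCm38). One receptor gene is not reported here.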

Additional observations from a re-analysis of the deposited data

Results flagged for a closer look

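Of 36 sets of 5 WT libraries (9 ligands at 4 timepoints), 5 held a library that stood apart by Dixon's test at the 95% level, which chance alone passes in about 1 of 20 sets. Ccl17 was 513 CPM in WT ZT3 replicate 3, against 105–207 CPM in the other libraries of that time. Cxcl16 was 2547 CPM in WT ZT9 replicate 2 (others 2339–2376). Ccl4 was 6.58 CPM in WT ZT9 replicate 1 (others 1.04–1.90) and 23.5 CPM in WT ZT15 replicate 2 (others 5.54–9.60). Ccl9 was 91.3 CPM in WT ZT21 replicate 4 (others 52.5–62.3).

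WT ZT15 replicate 2 also had the highest sums in the WT group of NK and cytotoxic genes (141 CPM, others 79.0–136) and of the other chemokine ligands (806 CPM, others 375–657). WT ZT3 replicate 3 had the highest Ccl22 (8099.7 CPM) and Ccl9 (144 CPM) of its timepoint. The part of other cells in these values was not tested.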

How the results depend on the processing

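Of the counts of called ligands, that over time in WT moved most: from 2 to 1 with genes of at least 10 CPM on average, which leaves Ccl3 out, to 1 with the replicate number as a block (adjusted p of Ccl3 0.0502), to 3 with array weights, which add Cxcl2 (adjusted p = 0.0274), and over 0–2 when 1 library was left out. The count was 5–6 for KO against WT and 5–6 for WT against PBS under all settings and omissions, and 0 for every cosinor, interaction and other test over time. Ccl17 joined the calls of KO against WT in 5 of 8 settings (log2 difference -0.51 and adjusted p = 0.0392 with median-of-ratios scaling) and in 6 of 32 omissions (WT ZT3 replicates 3, 4 or 5, KO ZT9 replicate 3, KO ZT15 replicate 2 or KO ZT21 replicate 3). Ccl5 left those of WT against PBS under median-of-ratios scaling and the block (adjusted p = 0.110 and 0.135) and in 5 of 32 omissions, of PBS libraries (ZT3 replicate 1, ZT9 replicates 2 or 3, ZT15 replicate 1 or ZT21 replicate 3; adjusted p = 0.0545–0.0686).

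Some values that passed no test changed sign. Ccl5 in KO minus WT became 0.0743 with array weights and lay between -0.0560 and 0.0594 when 1 library was left out. Ccl9 became -0.0181 (KO minus WT) and 0.0728 (WT minus PBS) with the block. Over omissions it ranged from -0.0716 (without KO ZT15 replicate 2) to 0.207 in the first and from -0.111 to 0.00214 (without WT ZT3 replicate 4) in the second comparison. The correlation of Ccl17 with Ccl22 in KO became 0.0661 with median-of-ratios scaling and 0.24 without the 2 farthest libraries, that of Ccl3 with Ccl4 in WT -0.0685, of Ccl5 with the NK list in KO -0.477 and of Ccl22 with the mature DC list in WT 0.0104 without those libraries, the last 0.43 with the scaling. With that scaling, Ccl17 and Ccl22 passed in WT and PBS (r = 0.87 and 0.94, adjusted permutation p = 0.0389). The cause was not tested.

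No pairing of mice by replicate number was seen on average. Same-numbered libraries of different timepoints had a mean correlation of -0.01 in WT (single pairs from -0.24 to 0.16), and of WT with KO 0.01. Such means cannot show whether some numbers share a batch. The replicate block cut the calls over all genes from 4031 to 3278 (KO against WT) and from 632 to 341 (timepoints in WT). Those over time in WT ranged from 278 without ZT15 replicate 1 to 1313 without ZT3 replicate 3 and reached 2462 with array weights. Those of genotype by time went from 6 to 311 without WT ZT3 replicate 3 and 1071 with array weights. Those of the cosinor in WT (3) went to 43 without the same library and 147 with array weights, and those of treatment by time (0) to 38 without WT ZT15 replicate 2. Timepoints called up to 22 genes in KO (array weights) and 3 in PBS libraries (intensity trend), against 0. Ccl3 in WT, at 0.551–6.32 CPM, rests on the fewest reads.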
